A study of Mus musculus with 36 samples.

Results

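Genes of the circadian clock were followed in brain RNA of mice given inhibitors of histone deacetylases (HDACs), the enzymes that remove acetyl groups from histones. The members were chosen by name, with earlier results of these data known. They are 10 genes (Per1, Per2, Per3, Cry1, Cry2, Arntl, Clock, Dbp, Nr1d1 and Nr1d2), of 30869 gene symbols in the array table. Together they have 17 of its 45281 probes. In the clock of mammalian cells, CLOCK and BMAL1 (the product of Arntl) bind E-box sequences as a pair and drive transcription of the Per and Cry genes, whose products return to inhibit that pair. The same pair drives Nr1d1 and Nr1d2, which encode the nuclear receptors REV-ERB alpha and beta that repress Arntl, and Dbp, an output transcription factor that acts through D-box sequences. The loop runs in most cells, including those of the cortex, striatum and hippocampus. Per and Dbp transcripts peak at another time of day than Arntl. An earlier or later hour of the local clock can therefore be read as opposite movement of the 2 sides.

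Male mice, C57BL/6J by the labels, received 10 daily intraperitoneal injections, and tissue was taken 1 h after the last. The 4 treatments were vehicle (saline, PEG-400 and DMSO, 7.5 mL/kg), Cpd-60 at 45 mg/kg (7.5 mL/kg), a benzamide selective for HDAC1 and HDAC2, SAHA at 25 mg/kg (5 mL/kg), a hydroxamic acid that inhibits more HDACs, and CI-994 at 10 mg/kg (5 mL/kg), another benzamide, with all drugs in the solvents of the vehicle and no genetic change in any group. RNA of the hippocampus (HIP), the nucleus accumbens (NAc) and the medial prefrontal cortex (PFC) was pooled from 2 mice per array, with 3 pools per treatment, and the 3 regions of a pool came from the same animals, which gave 12 groups and 36 Illumina MouseWG-6 arrays. Dose, volume and compound differ together between the drugs, so the drugs are given side by side without a test between them. The 3 drugs were compared with the same 3 vehicle pools of a region, and the comparisons of a region therefore share those arrays. The labels give no age and no clock hour of injection or death, and each pool gives 1 time point, so the arrays show no rhythm. A difference in the hour of death between groups and a shift of the clock cannot be told apart here, for the phase index described further on as for single genes.

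Each value below is the log2 of a quantile normalized intensity, and a change is a difference of such values. The median raw intensity of the arrays lay between 82.2 and 108.3, and 31.9% to 43.3% of probes were detected at a detection p of 0.01. Each region was hybridised on its own 2 BeadChips of 6 arrays. BeadChip 1 held vehicle and Cpd-60 pools 1 and 2 and the first pools of SAHA and CI-994, and BeadChip 2 held the third pools of vehicle and Cpd-60 and pools 2 and 3 of SAHA and CI-994. Dissection markers placed the arrays in the labelled regions: Drd1a, Drd2, Adora2a, Ppp1r1b and Rgs9 were highest on all NAc arrays, Tbr1, Lamp5, Cux2 and Fezf2 on all PFC arrays, and Prox1 and C1ql2 on all HIP arrays. Exceptions included Wfs1, listed as a hippocampal marker but highest in the NAc, and Neurod6 and Tdo2, which were detected on 0 arrays.

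Promoter windows are shown for 5 members, because Per1 and Cry2, and Arntl and Nr1d2, were the pairs that varied most alike over the arrays, and because Per3 alone held a D-box. The windows of 300 bases span a transcript start in RefSeq (GRCm38.p6) and lie mostly before it. Per1 and Arntl have a further window each, and the one with more matches is shown. Capitals mark every match, on either strand, to the E-box CACGTG, the E-prime box CACGTT, the D-box TTATGTAA or the pattern NTNGGTCA. That pattern is a loose form of the core of the ROR element, the sequence that REV-ERB and ROR receptors share. Each N stands for any base.
Per1 (chr11:69098699-69098998, plus strand): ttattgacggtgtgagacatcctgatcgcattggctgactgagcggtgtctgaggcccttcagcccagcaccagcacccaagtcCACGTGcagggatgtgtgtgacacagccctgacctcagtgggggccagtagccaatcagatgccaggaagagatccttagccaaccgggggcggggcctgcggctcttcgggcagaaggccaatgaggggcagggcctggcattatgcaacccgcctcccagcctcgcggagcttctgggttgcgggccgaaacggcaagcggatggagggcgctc
Cry2 (chr2:92434020-92434319, minus strand): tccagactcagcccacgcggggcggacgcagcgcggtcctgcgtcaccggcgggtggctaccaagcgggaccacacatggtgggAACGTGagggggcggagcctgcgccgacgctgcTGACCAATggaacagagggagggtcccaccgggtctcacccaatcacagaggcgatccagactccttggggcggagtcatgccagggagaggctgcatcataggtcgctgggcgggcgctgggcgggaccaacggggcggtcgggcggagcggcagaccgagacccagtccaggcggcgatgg
Arntl (chr7:113207261-113207560, plus strand): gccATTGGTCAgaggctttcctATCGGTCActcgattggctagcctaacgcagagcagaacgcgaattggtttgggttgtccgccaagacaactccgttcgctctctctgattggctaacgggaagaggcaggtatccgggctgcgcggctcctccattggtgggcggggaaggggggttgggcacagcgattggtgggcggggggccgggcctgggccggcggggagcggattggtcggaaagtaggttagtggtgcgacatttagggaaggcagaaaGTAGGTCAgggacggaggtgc
Nr1d2 (chr14:18239057-18239356, minus strand): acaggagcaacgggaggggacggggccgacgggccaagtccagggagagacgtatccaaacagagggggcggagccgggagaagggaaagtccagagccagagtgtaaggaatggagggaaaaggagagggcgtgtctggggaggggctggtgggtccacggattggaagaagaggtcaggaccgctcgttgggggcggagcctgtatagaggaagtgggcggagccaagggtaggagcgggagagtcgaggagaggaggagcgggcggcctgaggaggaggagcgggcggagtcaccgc
Per3 (chr4:151044616-151044915, minus strand): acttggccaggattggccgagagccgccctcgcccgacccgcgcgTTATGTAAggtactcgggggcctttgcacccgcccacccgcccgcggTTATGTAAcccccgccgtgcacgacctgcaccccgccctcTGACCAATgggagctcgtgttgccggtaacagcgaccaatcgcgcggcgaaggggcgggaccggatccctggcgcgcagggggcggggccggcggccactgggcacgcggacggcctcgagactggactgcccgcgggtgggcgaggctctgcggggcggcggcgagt

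RefSeq windows were found for 9 of the 10 genes, 13 windows in all. The E-box lay in 2 of the 13 windows (of Per1 and Cry1), against 7.15% of all 32851 windows. The Per1 match began 166 bases before the transcript start (position -166), and the other Per1 window held no E-box. The E-prime box lay in 3 of the 13 windows (of Cry1, Cry2 and Nr1d1) against 4.68% of all windows. The loose form of the ROR core lay in 4 of the 13 windows (of Per3, of Cry2 and both of Arntl, which overlap) against 10.9%. The Arntl window shown held 3 matches to this loose form, and the other Arntl window held 2. The D-box occurred in 0.938% of all windows, and the Per3 window held 2 of them. The cyclic AMP element TGACGTCA (1.79% of windows) and the glucocorticoid element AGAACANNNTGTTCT (0.00913%) were in no window of these genes, and the Nr1d2 window held none of the 6 motifs. These matches describe letters in a short window and not binding.

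The signal of the probes decided what could be tested. Testing in a region required detection (p of 0.2 or less) on the 3 arrays of some treatment there, and 13 of the 17 probes passed in all 3 regions. Each gene is described by its brightest such probe, called the main probe here. Cry1, a repressor of the CLOCK and BMAL1 pair, has 1 probe, which reached a detection p of 0.01 on 0 of 36 arrays and 0.2 on 4, and it was not tested. Its values lay between 6.28 and 6.65 on all arrays, close to those of the undetected probes of Clock and Nr1d2. The main probes of Dbp, Per1, Per2, Cry2, Clock and Nr1d2 were detected at 0.01 on all 36 arrays, that of Nr1d1 on 34, of Arntl on 33 and of Per3 on 30. A further probe of Clock and a further probe of Nr1d2 were tested in no region.

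**Figure D1:**
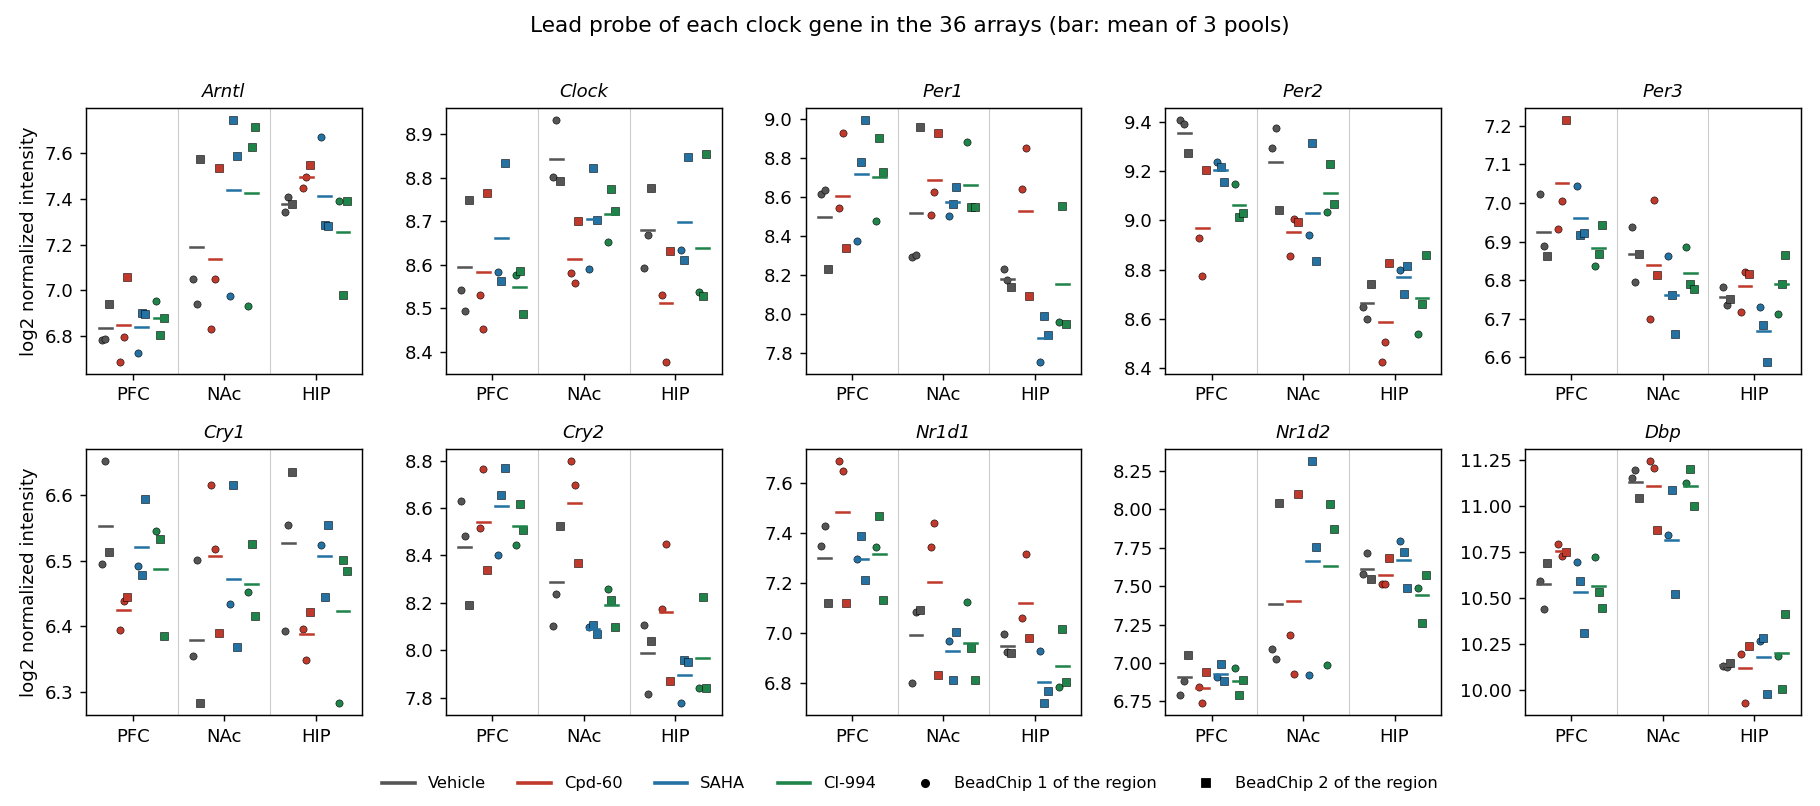
Log2 quantile normalized intensity (vertical axes) of the main probe of each clock gene on every array, by region and treatment, with each point 1 pool of 2 mice and each bar the mean of 3 pools. Dbp was highest in the NAc, Per2 was lowest in the HIP, and Arntl and Nr1d2 split into 2 levels within the NAc.

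Under vehicle, several clock genes differed between the brain regions. Of the 9 genes tested, 1 differed between NAc and PFC, 4 between HIP and PFC and 2 between HIP and NAc at an adjusted p under 0.05, where the share of all 19447 probes tested was 19.5%, 25.9% and 16.7%. In bulk tissue, fewer cells of a type and less RNA per cell cannot be told apart. Each region also lay on its own BeadChips, so region and BeadChip cannot be told apart either. Oligodendrocyte transcripts differed too: over all arrays of a region Mbp averaged 12.32 in the PFC and 13.20 in the HIP, and Mobp 8.48 and 10.80, and their part in these results was not tested.

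Dbp, the output factor, showed the widest difference. The 3 vehicle pools gave 11.15, 11.19 and 11.04 in the NAc, 10.59, 10.44 and 10.69 in the PFC and 10.13, 10.13 and 10.15 in the HIP. The regions did not overlap, with the NAc highest and the HIP lowest. NAc exceeded PFC by 0.55 (SE 0.13, adjusted p = 0.0022), HIP was below PFC by a difference of -0.44 (adjusted p = 0.0123), and HIP was 1.99-fold lower than NAc (-0.99, adjusted p = 9.6e-07). Without vehicle replicate 2 the NAc and PFC difference did not pass the threshold, and of the 3 fits without a vehicle pool, that one alone kept the HIP and PFC difference past it.

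Per2, the repressor whose transcript also answers light and stress hormone, was lowest in the HIP. Its main probe, ILMN_2987862, gave 8.65, 8.60 and 8.74 in the vehicle HIP, 9.41, 9.39 and 9.27 in the PFC and 9.29, 9.38 and 9.04 in the NAc. The HIP pools lay below every pool of the other 2 regions, which overlapped. HIP differed from PFC by -0.69 (SE 0.12, adjusted p = 6.5e-05) and from NAc by -0.57 (adjusted p = 0.00053), and both held without any 1 vehicle pool. The second bright Per2 probe, ILMN_2987863, gave differences of -0.47 (adjusted p = 0.0022) and -0.33 (adjusted p = 0.0338).

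Cry2, a second repressor, and Arntl, the activator, were the other 2 genes to differ between HIP and PFC. Cry2 read 8.11, 7.81 and 8.04 in the HIP and 8.63, 8.48 and 8.19 in the PFC, a difference of -0.45 (adjusted p = 0.023). Arntl went the other way, with 7.34, 7.41 and 7.38 in the HIP against 6.78, 6.79 and 6.94 in the PFC (0.54, adjusted p = 0.0415). Cry2 passed only in the fit without vehicle replicate 3 and Arntl in none of the 3 fits that left out a vehicle pool, and with BeadChip as a random block Cry2 no longer passed (adjusted p = 0.0517) while Nr1d2 did (0.69, adjusted p = 0.0333). With neqc, which subtracts background, the difference of Arntl was 1.24 (adjusted p = 0.0196) and that of Nr1d2 was 1.45 and also passed (adjusted p = 0.0279). With quantile normalization and the pool as block, Clock, Per1, Per3, Nr1d1 and Nr1d2 passed in no pair of regions. The nearest was Nr1d2 between HIP and PFC, with 7.58, 7.72 and 7.55 against 6.79, 6.89 and 7.05 (adjusted p = 0.0651).

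No clock gene differed from vehicle under any drug in any region after adjustment. Over the 81 tests of the main probes (9 genes, 3 drugs and 3 regions), changes ran from -0.39 to 0.35, the smallest adjusted p was 0.592, and 6 tests had an unadjusted p under 0.05. In all 9 comparisons 0% of the probes on the array passed the adjusted threshold. The 95% interval of a change reached 0.25 to each side in the median test, and from 0.13 to 0.97 over all tests. Smaller movements were not detectable with 3 pools. These intervals carry no adjustment, and larger movements could also miss the adjusted threshold. Per2 under Cpd-60 in the PFC, at -0.39, had an adjusted p of 0.658 in limma. At an unadjusted p under 0.05, Cpd-60 in the PFC gave 1 gene of 9 (Per2, lower) where 5.19% of all probes were past that mark, SAHA gave 0 (2.25%) and CI-994 gave 1 (Per2, lower; 3.98%). In the NAc, Cpd-60 gave 3 (Clock and Per2 lower, Cry2 higher; 4.77%), SAHA gave 1 (Dbp, lower; 2.05%) and CI-994 gave 0 (1.99%). In the HIP, Cpd-60, SAHA and CI-994 each gave 0, where 5.26%, 9.37% and 3.24% of all probes were past it. At a detection p of 0.01, the SAHA arrays of the HIP detected 34.3%, 32.1% and 32.3% of probes. The vehicle arrays of the HIP detected 39.7%, 39.7% and 38.0%. The part of this in the SAHA results of the HIP was not tested.

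**Figure D2:**
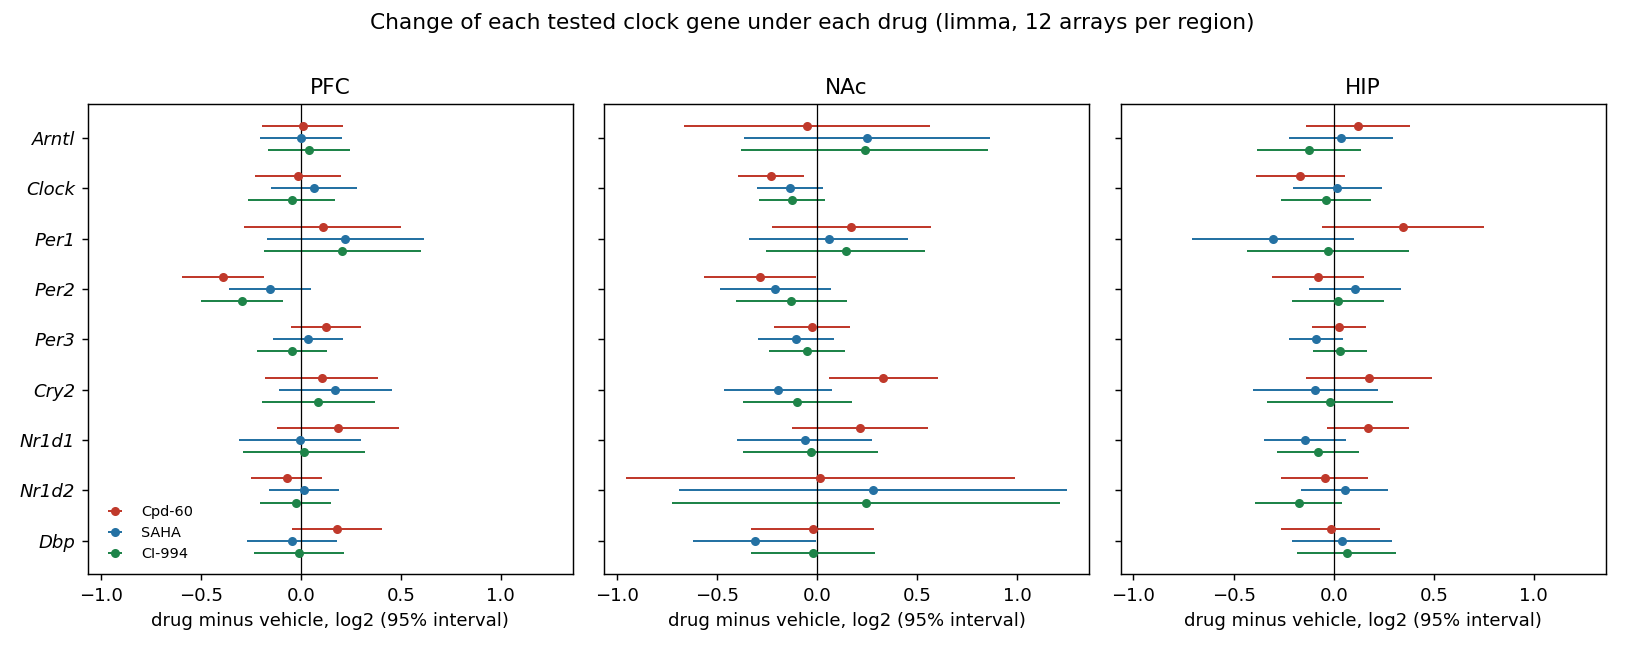
Log2 change of the main probe of each tested clock gene against vehicle (horizontal axes) with its 95% interval from limma, by region and drug. Most intervals span 0, and the widest belong to Arntl and Nr1d2 in the NAc.

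Per2 carried the lowest unadjusted p of these genes, in the PFC under Cpd-60. Its main probe read 9.41, 9.39 and 9.27 under vehicle and 8.93, 8.78 and 9.21 under Cpd-60, so every Cpd-60 pool was below every vehicle pool, the third only just. The difference was -0.39 (SE 0.09, 95% interval -0.59 to -0.18, unadjusted p = 0.0013, adjusted p = 0.658), a level 1.31-fold lower, and it ranked 43 among 22156 probes. On BeadChip 1 the difference of means was -0.55 and on BeadChip 2, which held 1 pool of each, -0.07. Of the 6 fits that left out a pool, only that without Cpd-60 replicate 3 passed the adjusted threshold (-0.50, adjusted p = 0.0461).

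The other drugs showed the same probe lower in the PFC. CI-994 pools read 9.15, 9.01 and 9.03, all below vehicle (-0.29, SE 0.09, unadjusted p = 0.0085, adjusted p = 1.00), with differences of -0.25 on each BeadChip. SAHA pools read 9.24, 9.22 and 9.16, also all below vehicle, with a difference of -0.15 that did not pass (unadjusted p = 0.126). Blood transcripts were compared beside this result, as the summed normalized intensity of Hbb-b1, Hba-a1 and Alas2 in the PFC. It was 9555 to 14711 under vehicle, 9267 to 13559 under Cpd-60, 9005 to 9545 under SAHA and 7929 to 9912 under CI-994. At an unadjusted limma p under 0.05, 2 of these 3 genes were lower under SAHA (2.25% of all probes) and 2 under CI-994 (3.98%). Under Cpd-60 0 of the 3 were past that mark (5.19%). The part of blood in the Per2 values was not tested.

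The remaining Per2 probes did not repeat this in full. ILMN_2987863, detected on all 36 arrays, read 8.96, 9.05 and 8.75 under vehicle and 8.57, 8.59 and 8.81 under Cpd-60 in the PFC, where 1 Cpd-60 pool lay among the vehicle pools. Its difference was -0.26 (SE 0.09, unadjusted p = 0.0087, adjusted p = 0.886), with -0.43 on BeadChip 1 and 0.06 on BeadChip 2. Under CI-994 it read 8.90, 8.91 and 8.90, within the vehicle pools (-0.02, unadjusted p = 0.832), and under SAHA 8.86, 8.94 and 8.97 (0.00, unadjusted p = 0.991). The CI-994 difference of the main probe was thus not seen on the second bright probe. ILMN_1258523 was near background, detected at 0.01 on 6 arrays, and read 6.73, 6.65 and 6.68 under vehicle and 6.82, 6.74 and 6.63 under Cpd-60 (0.04, unadjusted p = 0.604).

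In the NAc, the main Per2 probe read 9.29, 9.38 and 9.04 under vehicle and 8.86, 9.01 and 8.99 under Cpd-60, again with no overlap (-0.29, SE 0.13, unadjusted p = 0.0452, adjusted p = 0.999). This p was over 0.05 in 5 of the 6 fits that left out a pool (all but that without vehicle replicate 3), and the difference was -0.40 on BeadChip 1 and -0.05 on BeadChip 2. SAHA pools read 8.94, 9.31 and 8.83 (-0.21, unadjusted p = 0.127) and CI-994 pools 9.04, 9.23 and 9.07 (-0.13, unadjusted p = 0.331), both overlapping vehicle. On ILMN_2987863 the Cpd-60 pools read 8.62, 8.65 and 8.66 against 8.50, 9.01 and 8.84 (-0.14, unadjusted p = 0.284). On ILMN_1258523 all NAc changes lay between -0.01 and 0.05.

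In the HIP neither bright probe passed under any drug. The main probe read 8.65, 8.60 and 8.74 under vehicle, 8.43, 8.51 and 8.83 under Cpd-60, 8.80, 8.70 and 8.81 under SAHA and 8.54, 8.66 and 8.86 under CI-994, and its changes were -0.08, 0.11 and 0.02. ILMN_2987863 read 8.54, 8.48 and 8.34 under vehicle and 8.30, 8.30 and 8.27 under Cpd-60, all 3 below vehicle, with a difference of -0.16 that did not pass (unadjusted p = 0.124). ILMN_1258523 was not tested there. The test of whether a drug effect on Per2 differed between regions did not pass either (lowest unadjusted p of the main probe 0.138, for SAHA).

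**Figure D3:**
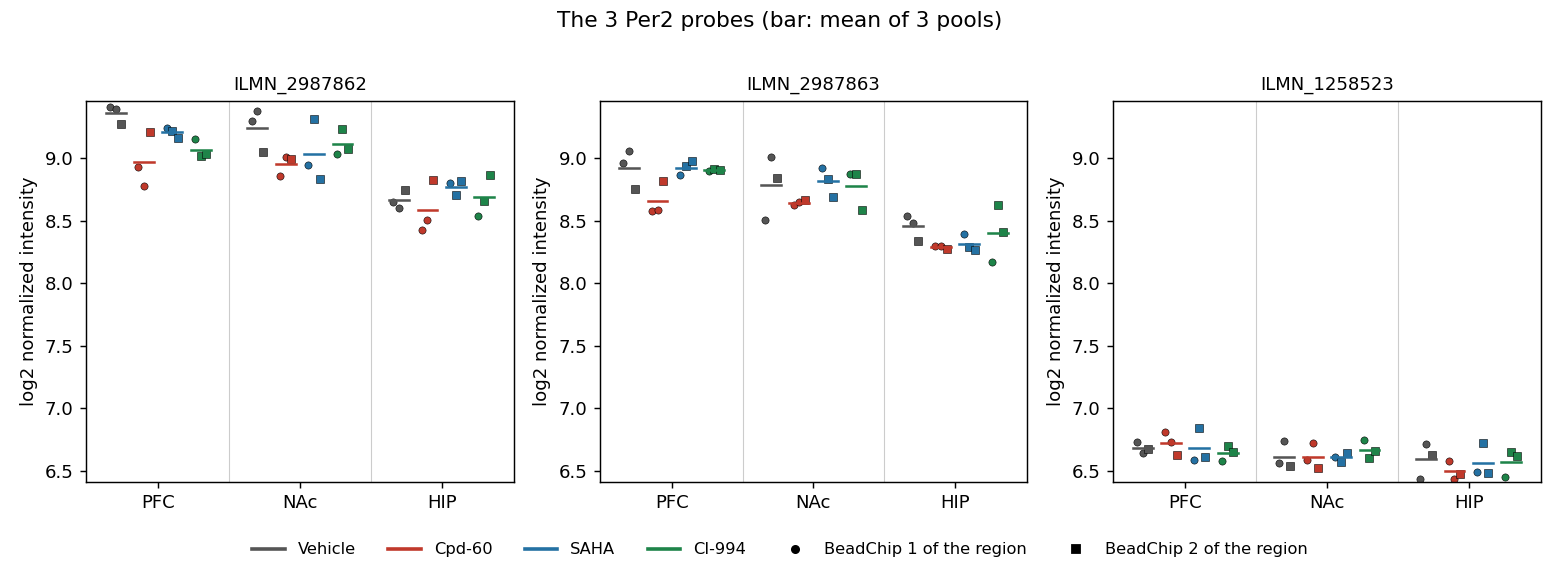
Log2 quantile normalized intensity (vertical axes) of the 3 Per2 probes on every array, by region and treatment, with each point 1 pool. In the PFC all drug pools of ILMN_2987862 sit below the vehicle pools, whereas on ILMN_2987863 this is not so and ILMN_1258523 stays near background, at a mean of 6.62.

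Per1, the family member with an early response to many stimuli, did not pass in any comparison. In the HIP it read 8.23, 8.18 and 8.14 under vehicle, 8.64, 8.85 and 8.09 under Cpd-60 (0.35, SE 0.19, unadjusted p = 0.0865) and 7.76, 7.99 and 7.89 under SAHA (-0.30, unadjusted p = 0.128, adjusted p = 0.592). The SAHA pools were all below vehicle and the first 2 Cpd-60 pools above it. Those SAHA arrays also detected fewer probes than the vehicle arrays, as given above. The second Per1 probe gave 0.28 (unadjusted p = 0.153) and -0.14 (unadjusted p = 0.455). In the PFC and NAc the vehicle pools alone spanned 8.23 to 8.64 and 8.29 to 8.96, and the changes of the main probe were 0.06 to 0.22.

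Per3, the third and dimmest Per gene here, varied little. Its changes lay between -0.11 and 0.13 in all 9 comparisons, with the lowest unadjusted p at 0.139 (Cpd-60 in the PFC, where pools read 6.93, 7.01 and 7.22 against 7.02, 6.89 and 6.86). In the HIP, SAHA pools read 6.73, 6.69 and 6.59 against 6.78, 6.74 and 6.75, just below vehicle (-0.09, unadjusted p = 0.178). The detection p of Per3 on those SAHA arrays was 0.028, 0.076 and 0.264, so it was near background there.

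Cry2 in the NAc read 8.10, 8.24 and 8.52 under vehicle and 8.80, 8.70 and 8.37 under Cpd-60. Of the Cpd-60 pools, 2 were above all vehicle pools and the third was among them. The difference was 0.33 (SE 0.12, unadjusted p = 0.0212, adjusted p = 0.999), with 0.58 on BeadChip 1 and -0.16 on BeadChip 2, and its p exceeded 0.05 in 4 of 6 fits without a pool (those without vehicle or Cpd-60 replicates 1 or 2). Under SAHA the pools were close together at 8.10, 8.11 and 8.07 (-0.20, unadjusted p = 0.139). The dim second Cry2 probe, detected at 0.01 on 4 arrays, gave 0.01 under Cpd-60 (unadjusted p = 0.923).

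On the activating side, Clock was lower in the NAc under Cpd-60. The main probe read 8.80, 8.93 and 8.79 under vehicle and 8.58, 8.56 and 8.70 under Cpd-60, with no overlap. The difference was -0.23 (SE 0.07, 95% interval -0.39 to -0.06, unadjusted p = 0.0113, adjusted p = 0.999), a 1.17-fold lower level, with -0.30 on BeadChip 1 and -0.09 on BeadChip 2. The p was under 0.05 in all 6 fits that left out a pool but was 0.0552 with neqc and 0.0518 by Tukey's test. CI-994 pools read 8.65, 8.77 and 8.72 there, below vehicle as well (-0.12, unadjusted p = 0.123), and SAHA pools 8.59, 8.82 and 8.70, partly among them (-0.14, unadjusted p = 0.0965, and 0.0409 with BeadChip as a block). The second tested Clock probe read 6.90, 7.02 and 6.90 under vehicle and 6.88, 6.90 and 6.77 under Cpd-60 (-0.09, unadjusted p = 0.263).

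Arntl, the partner of Clock, did not pass under any drug. In the HIP the Cpd-60 pools read 7.45, 7.50 and 7.55 and lay above the vehicle pools at 7.34, 7.41 and 7.38 (0.12, SE 0.12, unadjusted p = 0.334). In the PFC its changes were 0.00 to 0.04. In the NAc its 12 values followed the BeadChip: the 6 arrays of BeadChip 1 read 6.83 to 7.05 and the 6 of BeadChip 2 read 7.53 to 7.75, whatever the treatment.

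Nr1d2, the gene of REV-ERB beta, was split in the same way in the NAc, at 6.92 to 7.18 on BeadChip 1 and 7.75 to 8.31 on BeadChip 2, a difference of 1.03 against 0.65 for Arntl. These were 2 of the 9 tested members whose values did not overlap between the BeadChips of the NAc, where 13.5% of all probes did not. In the PFC and HIP the BeadChips overlapped for all 9, against 0.835% and 1.82% of probes without overlap. Beside this split, 31.9% to 41.1% of probes were detected at 0.01 on BeadChip 1 of the NAc and 36.8% to 43.3% on BeadChip 2. The part of this in the split was not tested. Outside it, Nr1d2 changed by -0.17 under CI-994 in the HIP (7.49, 7.26 and 7.57 against 7.58, 7.72 and 7.55, unadjusted p = 0.104).

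Nr1d1, the gene of REV-ERB alpha, read higher in the first 2 Cpd-60 pools and not in the third in each region. In the PFC the Cpd-60 pools were 7.69, 7.65 and 7.12 against 7.35, 7.43 and 7.12 under vehicle (0.19, unadjusted p = 0.21). In the NAc they were 7.35, 7.44 and 6.83 against 6.80, 7.08 and 7.09 (0.22, unadjusted p = 0.189). In the HIP they were 7.06, 7.32 and 6.98 against 7.00, 6.92 and 6.92 (0.17, unadjusted p = 0.091), where the third pool lay between vehicle values. No comparison of Nr1d1 passed.

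Dbp was lower under SAHA in the NAc, where the vehicle pools read 11.15, 11.19 and 11.04 and the SAHA pools 10.84, 11.09 and 10.52. The groups overlapped by 1 pool. The difference was -0.31 (SE 0.14, unadjusted p = 0.0477, adjusted p = 1.00), with an unadjusted p of 0.0664 with BeadChip as a block and over 0.05 in 5 of the 6 fits that left out a pool (all but that without SAHA replicate 2). Under Cpd-60 in the PFC all pools (10.80, 10.73 and 10.75) were above vehicle (10.59, 10.44 and 10.69), with a difference of 0.18 that did not pass (unadjusted p = 0.102). In the HIP its changes were -0.01, 0.04 and 0.06 under Cpd-60, SAHA and CI-994.

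A phase index set the 2 sides of the clock against each other. It is the mean change of Per1, Per2, Per3 and Dbp minus the change of Arntl, per array relative to the vehicle mean of the region, and it is a description without a test. In the PFC it averaged -0.00 ± 0.16 under Cpd-60, 0.01 ± 0.09 under SAHA and -0.08 ± 0.09 under CI-994, against a vehicle SD of 0.16 (SD, n = 3 each). In the HIP it was -0.05 ± 0.06, -0.10 ± 0.22 and 0.15 ± 0.29, against a vehicle SD of 0.05. The drug pools overlapped the vehicle pools in every case.

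The index was furthest from 0 in the NAc under SAHA, at -0.39 ± 0.40, followed by CI-994 at -0.25 ± 0.49, whereas Cpd-60 gave 0.01 ± 0.34 and the vehicle SD was 0.30. Its SAHA pools read 0.06, -0.56 and -0.67 and the vehicle pools 0.12, 0.23 and -0.35. The low values were those of BeadChip 2, in vehicle and drug alike, and Arntl, which enters the index with a minus sign, was higher on that BeadChip. With BeadChip as a block the index was -0.17 under SAHA and -0.03 under CI-994. Within the index the members did not move as one: under Cpd-60 in the PFC, Per2 differed by -0.39 while Per1, Per3 and Dbp differed by 0.11, 0.13 and 0.18, and Arntl by 0.01.

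**Figure D4:**
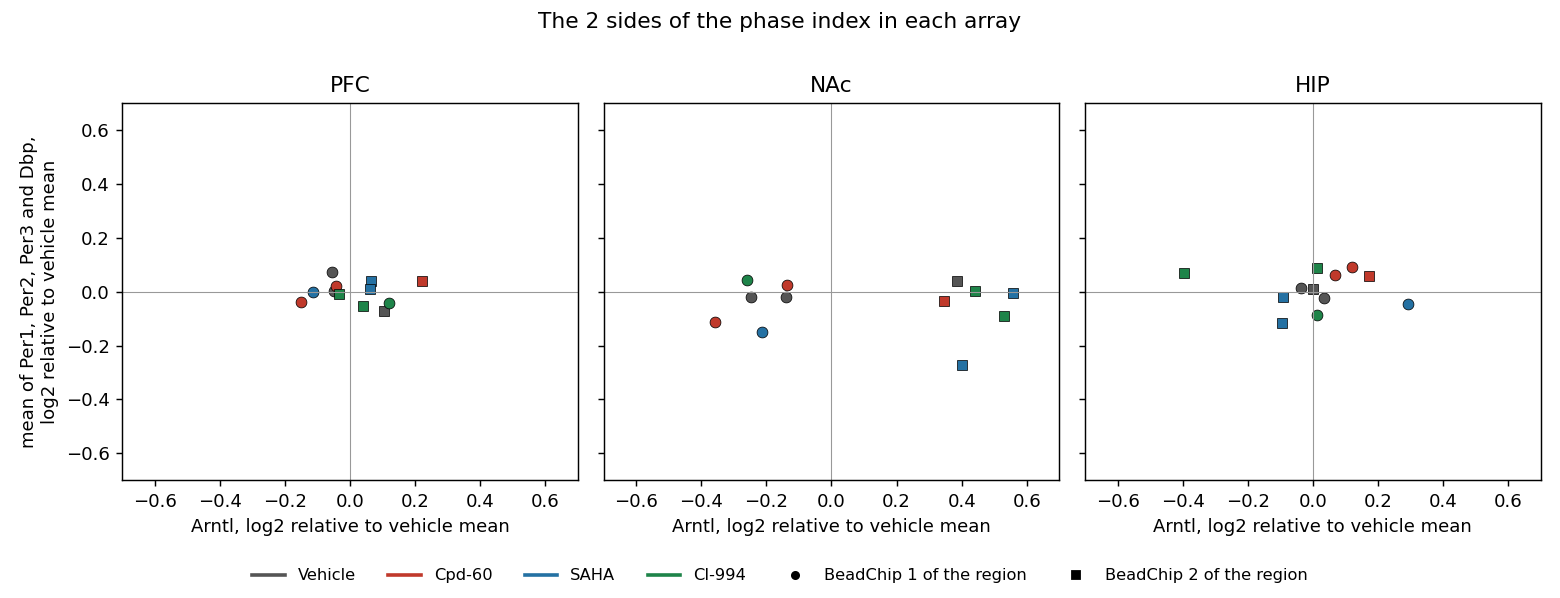
The sides of the phase index in every pool, by region. Vertical axes give the mean change of Per1, Per2, Per3 and Dbp and horizontal axes that of Arntl. Both are in log2 units relative to the vehicle mean, with the treatment and BeadChip of each pool marked. In the NAc the pools of BeadChip 2 lie to the right of those of BeadChip 1 in every treatment, at higher Arntl.

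None of the 9 genes showed a drug effect that differed between regions. In the F test of drug by region, 0 of 9 passed at an unadjusted p under 0.05 for each drug, where 1.97% of all probes did for Cpd-60, 3.75% for SAHA and 1.3% for CI-994, and 0% passed after adjustment. The lowest p were 0.138 for Per2 and 0.145 for Dbp, both under SAHA.

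Pools of a group differed among themselves, and some members did so together. The correlations that follow run over 36 arrays after the mean of each group was subtracted; arrays share normalization and BeadChips, and the values are descriptions. Arntl and Nr1d2 had r = 0.90, which within the NAc was 0.95 and 0.10 once BeadChip was also removed. Within the HIP the pair kept r = 0.78 and within the PFC 0.60 after BeadChip was removed. Per1 and Cry2, of the promoters shown above, had r = 0.74, with 0.97 in the PFC, 0.92 in the HIP and 0.36 in the NAc after removal of BeadChip. Per1 ran against Dbp (-0.60) and against Per2 (-0.52), in the 3 regions alike in sign, whereas Per2 and Clock ran together (0.56).

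Over all probes tested in the 3 regions, those most like Arntl by the same measure were Hcfc1 (0.97), LOC100048622 (0.96) and Fxr2 (0.96), and those most opposed were LOC100048046 (-0.90), Uba1 (-0.90) and Coq5 (-0.89). All of these were split by BeadChip in the NAc as well, without overlap. Hcfc1 read 7.12 to 7.50 on BeadChip 1 and 8.21 to 8.63 on BeadChip 2. Uba1, one of those opposed, read 10.95 to 11.18 and 10.53 to 10.72. Most like Dbp were 1500001M20Rik (0.81), Tiam2 (0.79) and Sirt7 (0.79), with Gnas (-0.79), Mnt (-0.78) and Iqsec3 (-0.77) most opposed. Most like Per2 were 9430008C03Rik, 5830411G16Rik and 2510012J08Rik (0.81, 0.81 and 0.80), with Chd3, Cxcl14 and Bin1 (-0.77 each) most opposed.

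Other genes of the clock were taken from a list of 21, of which 19 were on the array and 14 or 15 were tested in a region. After adjustment 0 passed in all 9 comparisons. At an unadjusted p under 0.05, Cpd-60 gave 1 higher and 1 lower of 14 in the PFC (5.19% of all probes), 0 of 14 in the NAc (4.77%) and 3 higher and 1 lower of 15 in the HIP (5.26%). SAHA gave 1 lower of 14 in the PFC (2.25%), 0 of 14 in the NAc (2.05%) and 1 of each of 15 in the HIP (9.37%). CI-994 gave 0 of 14 in the PFC (3.98%) and NAc (1.99%) and 1 lower of 15 in the HIP (3.24%). The median change of the list lay between -0.02 and 0.09, beside -0.01 to 0.00 over all probes.

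The named genes of that list had all drug pools beyond all vehicle pools. Tef, a relative of Dbp that binds the same D-box, was higher under SAHA in the HIP by 0.39 (unadjusted p = 0.0012, adjusted p = 0.502) but read lower under SAHA in the PFC (-0.24, unadjusted p = 0.0428) and under Cpd-60 in the HIP (-0.21, unadjusted p = 0.0411). In the HIP under Cpd-60, Gm129, the gene of the clock repressor also called Ciart, was higher by 0.45 (unadjusted p = 0.0117), and Rora, an activator at ROR elements, by 0.32 (unadjusted p = 0.0104). Both were nearer vehicle on BeadChip 2 (0.09 and 0.10) than on BeadChip 1 (0.63 and 0.43). Btrc, part of the ligase that marks PER proteins for degradation, was lower under SAHA in the HIP (-0.44, unadjusted p = 0.0153). Bhlhb2, the repressor also called Bhlhe40 or DEC1, was lower under CI-994 in the HIP (-0.33, unadjusted p = 0.0035). For Tef and Btrc, the SAHA arrays of the HIP detected fewer probes than the vehicle arrays, as given above.

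Temperature and hormone reset peripheral clocks, and 10 of 11 genes listed for such cues were tested. Under Cpd-60, 4 of 10 were higher at an unadjusted p under 0.05 in each region and 0 were lower, where 5.19%, 4.77% and 5.26% of all probes were past that mark in the PFC, NAc and HIP, and 0 passed after adjustment. The list holds genes known from earlier results of these arrays, so its direction is not independent evidence. CI-994 gave 1 higher, in the PFC (3.98%), with 0 for the HIP (3.24%) and the NAc (1.99%), and SAHA gave 0 in the 3 regions (2.25%, 2.05% and 9.37%). Tsc22d3, a glucocorticoid-induced gene, was higher by 0.55 in the PFC (unadjusted p = 0.00071, adjusted p = 0.658) and by 0.85 in the NAc, Sgk1, another such gene, by 0.75 in the NAc and 0.89 in the HIP (unadjusted p = 0.00033), and Fkbp5 by 0.54 in the PFC. Cirbp, a cold-inducible RNA-binding protein that shapes clock amplitude, was higher by 0.42 in the PFC and 0.54 in the NAc (unadjusted p = 0.0044 each). These too were smaller on BeadChip 2, as for Sgk1 in the HIP (0.23 against 1.22). Hspa1b was higher under CI-994 in the PFC by 0.25 (unadjusted p = 0.0086).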

How the data were processed

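RNA of 36 pools (12 groups of 3) was hybridised to Illumina MouseWG-6 arrays. For 45281 probes per array, the authors deposited an intensity on a linear scale, neither background subtracted nor normalized, and a detection p-value. Probes carry the symbols of the deposited table. Groups came from the sample titles. The Cpd-60 pool of mice 3 and 4 (replicate 2) is named after mice 1 and 2 in its description line in every region. The titles were used, and the fits without Cpd-60 replicate 2 leave that pool out.

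Analyses used limma 3.58.1 in R 4.3.3. All 36 arrays were quantile normalized together and log2 transformed. Probes were tested in a region if some group there had a detection p of 0.2 or less on its 3 arrays (22156 in the PFC, 23242 in the NAc, 23275 in the HIP and 19447 in all 3). The 12 arrays of a region were fitted in 1 linear model with empirical Bayes moderation, each drug against vehicle, with Benjamini-Hochberg adjustment over all probes of the comparison at 0.05. Unadjusted p-values are from the same limma fits. Regions under vehicle and the drug by region F test used 1 model of 36 arrays in which the pool was a random block (consensus correlation -0.00). Pools of 2 mice are the replicates, and p-values measure the spread between pools. The methods' centring of each transcript on its median alters no difference and was left out. The number of arrays limits the precision.

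All 10 genes were named, with all Per2 probes. Of the lists of other clock genes and cue genes, those with an unadjusted p under 0.05 and all drug pools beyond all vehicle pools were named, up to 6 per comparison, and for Dbp, Per2 and Arntl the 3 probes most alike and the 3 most opposed. The members and lists were chosen with earlier results of these data known. Results of some marker genes are not reported here.

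Alternatives were limma's neqc (offset 16), the 27 arrays without CI-994, a detection p of at most 0.01, no filter, BeadChip as a block, differences within each BeadChip, the replicate number as a block, Tukey's test after ANOVA as in the methods, and each pool left out in turn. BeadChip as a random block in the region model was chosen after seeing the data. The fits were tested on simulated data. Promoter windows were read from a RefSeq table, and motifs were searched on both strands.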

Additional observations from a re-analysis of the deposited data

How the results depend on the processing

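After adjustment, the count of clock genes past the threshold was 0 in all 9 drug comparisons under every alternative with all pools. Leaving out 1 pool kept it at 0 in 8 of them and gave 0 to 1 for Cpd-60 in the PFC, the 1 being Per2 without Cpd-60 replicate 3. Counts summed over the regions at an unadjusted p under 0.05 were less stable. For Cpd-60 the 4 became 2 with neqc (without Clock and Per2 in the NAc) and 1 with Tukey's test, and 2 to 8 with a pool left out (2 without vehicle replicate 1 or 2 or Cpd-60 replicate 2, and 8 without Cpd-60 replicate 3). For SAHA the 1 became 0 with neqc, with the 27 arrays, with a detection p of at most 0.01 and with Tukey's test, and 0 to 3 with a pool left out (0 without vehicle replicate 2 or SAHA replicate 3, and 3 without SAHA replicate 2). For CI-994 it was 1 to 2, with 2 without vehicle replicate 3 or CI-994 replicate 3. The cause was not tested. Between regions, leaving out a vehicle pool gave 0 to 1 genes for NAc against PFC (0 without replicate 2), 1 to 2 for HIP against PFC against 4 with all pools (1 without replicate 1) and 2 to 2 for HIP against NAc. The fit without the pool as a block gave 1, 4 and 2, as reported. With neqc HIP against PFC gave 5, with Nr1d2 added.

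Within BeadChip 2 the Cpd-60 difference turned its sign for Per2 (ILMN_2987863) in the PFC (0.060) and for Cry2 in the NAc (-0.16), each from 1 pool per group. Under neqc the phase index of Cpd-60 in the HIP was -0.11. Tukey's test kept Per2 (ILMN_2987862) under Cpd-60 in the PFC and no other member, and 0 of all probes passed it after adjustment in the 6 comparisons it covers, with 240 to 1076 at an unadjusted p under 0.05. Numbers of pools name different animals in each treatment. With the replicate block the SAHA count became 2 (Dbp and Per2 in the NAc), that of Cpd-60 became 6 and that of CI-994 was 1. Same-numbered pools deviated together, every correlation over 0.1, in 2 of 9 comparisons (Cpd-60 in the PFC and NAc). There the replicate block changed no call. All other counts and phase indices (113 values) stayed within 1.5 times or within 1 SD. That SD is the one between pools, a wide allowance for the phase index. The counts include those after adjustment, which were 0 in the drug comparisons and had little room to move.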
